A study of Mus musculus with 6 samples.

Results

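The cells described here were postnatal hypothalamic neurons that carried Irs4 together with genes that accompany it, and little Pomc. They were selected on their own counts in the P5 and P12 libraries. A cell was taken if it had at least 2 unique molecular identifiers (UMIs) of Irs4, at least 1 UMI of 2 or more of the 4 companion genes Col25a1, Gpr101, Calcr and Ecel1, no UMI of Otp, fewer than 5 UMIs of Tac2 and fewer than 10 of Pomc per 10000 UMIs of the cell, and UMIs of at least 3 out of 6 genes that neurons share (Elavl3, Mapt, Snap25, Stmn2, Syt1 and Tubb3). The rule found 305 cells among the 3909 of the P5 library and 173 among the 3533 of the P12 library, in all 478 of 7442 postnatal cells, in a series of 13953 cells. Among neurons, defined as cells with those neuronal genes and without a stronger non-neuronal signature, they made up 8.85% at P5 (exact binomial interval at 95% 7.92 to 9.84%, of 3448 neurons) and 13.2% at P12 (11.4 to 15.1%, of 1311 neurons). The remaining 3143 and 1138 neurons of the same libraries served as the comparison. They were divided into Pomc-high neurons (at least 10 Pomc UMIs per 10000, 1553 and 729 cells), then Tac2 neurons (at least 5 Tac2 UMIs per 10000, 508 and 200 cells), then Otp neurons (at least 1 Otp UMI, 107 and 85 cells) and the rest (975 and 124 cells).

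The study followed hypothalamic cells that express Pomc through development, with 1 droplet library for each of 6 ages. The mice were C57BL/6 and carried the Pomc-DsRed transgene (Pomc-DsRed/+), in which Pomc regulatory sequence drives a red fluorescent protein, and this held for every library. Hypothalami of at least 6 pups were pooled for each library, and the cells were sorted for the red fluorescence. The P5 library carries that age in its title, while its protocol states P6. Both postnatal libraries were made with version 3 of the 10x Genomics reagents and the embryonic ones with version 2. The deposited cells each have at least 1 Pomc UMI, and no treatment distinguished the groups. Because each age was 1 library of pooled animals, no p-value could be computed between ages or cell groups, and all intervals are exact 95% intervals that cover counting error only.

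Irs4 encodes a member of the insulin receptor substrate family, the docking proteins that pass signals from the insulin and insulin-like growth factor receptors to phosphoinositide 3-kinase. The arcuate nucleus of the hypothalamus holds several kinds of neurons that sense hormones of energy balance, among them neurons that make proopiomelanocortin (POMC), neurons that make agouti-related peptide and neuropeptide Y, and neurons that make kisspeptin, neurokinin B and dynorphin. Many arcuate neurons come from progenitors that once express Pomc, and only some of them retain it at high level.

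The members held a median of 22075 UMIs per cell at P5 (range 4291 to 56435) and 32250 at P12 (4057 to 54928). The other neurons had medians of 19965 and 29858.5 UMIs, so the members were slightly deeper than these as a whole. By group the medians were 25367 and 33065 in the Pomc-high neurons and 14727.5 and 19440 in the Tac2 neurons. They were 18436 and 29590 in the Otp neurons and 14532 and 24365 in the rest. The limits of the rule on Irs4 and its companion genes are in UMIs of the cell and were not adjusted for depth. Microglia of the same libraries, sorted along with the neurons and used here as a measure of free RNA, had medians of 10888.5 and 10585 UMIs. The P5 and P12 libraries had 1 barcode in common, which belonged to no member.

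The genes that chose the cells are given as a description. The Irs4 gene lies on the X chromosome, on the minus strand from base 141710998 to base 141725263 of GRCm38. Its level, the summed UMIs of the gene per 10000 summed UMIs, was 4.28 in the members at P5 and 6.56 at P12, against 1.93 and 4.42 in the other neurons. Single members ranged from 0.422 to 15.6 Irs4 UMIs per 10000 at P5, with a median of 3.88, and from 0.453 to 20.7 at P12, with a median of 4.90. The other neurons ranged from 0 to 19.7 and from 0 to 23.0, so the members overlapped them over the whole range of Irs4. Of the companion genes, Gpr101 (an orphan G protein-coupled receptor) was present in 73.1% and 75.1% of members, Col25a1 (a membrane collagen) in 50.2% and 79.2%, Calcr (the calcitonin receptor) in 57.0% and 53.8%, and Ecel1 (an endopeptidase-like protein) in 87.2% and 79.8%. Most members held only part of the set, since 150 of 305 at P5 and 65 of 173 at P12 had just 2 of the 4 companion genes and 51 and 44 had all of them.

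**Figure D1:**
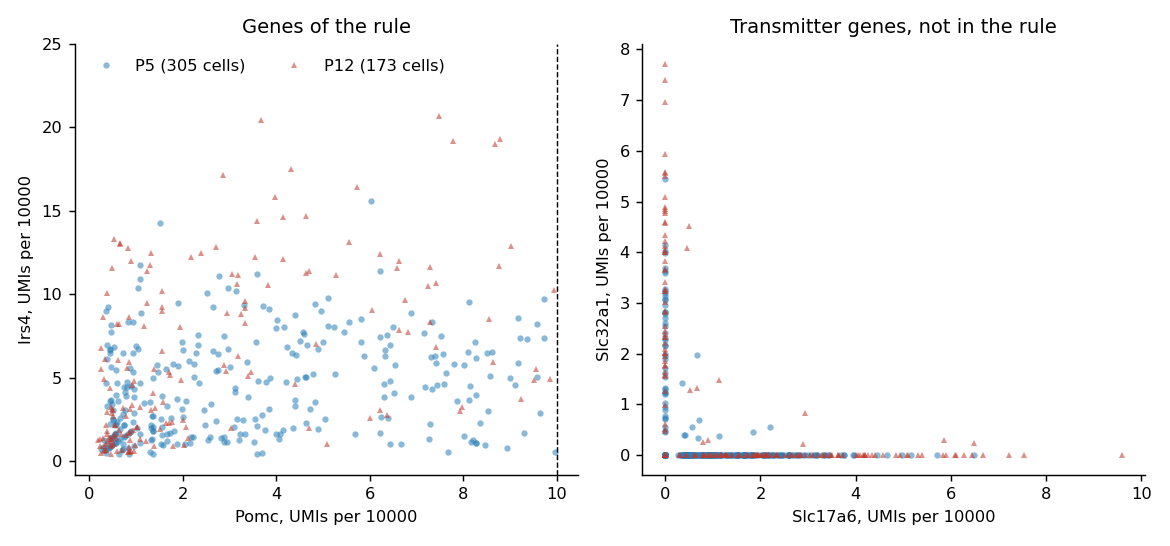
Each point is 1 member (blue circles, 305 cells at P5, red triangles, 173 cells at P12), with Pomc on the x axis and Irs4 on the y axis at left and with Slc17a6 on the x axis and Slc32a1 on the y axis at right, all in UMIs per 10000 UMIs of the cell, and the dashed line marks the Pomc limit of 10. Irs4 takes low and high values all along the Pomc range, and at right the cells lie along one axis or the other, with 10 members at P5 and 11 at P12 holding both transporters.

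Several limits of the rule ran through a continuous range of cells. The highest Pomc value inside the limit was 9.96 UMIs per 10000 at P5 and 9.94 at P12, and the lowest outside was 10.03 and 10.05. Between 8 and 10 UMIs per 10000 lay 33 and 11 members, while 38 and 16 cells that met every other condition lay between 10 and 12. Pomc alone kept out 637 cells at P5 and 428 at P12, more than the members in each library. A single Irs4 UMI in place of 2 kept out 57 and 21 cells, and the companion genes kept out 191 and 38 cells that had only 1 of them. In 45 and 23 members Irs4 stood exactly at the minimum of 2 UMIs. The Tac2 limit fell in a clearer gap at P12, with the highest member at 4.11 and the lowest excluded cell at 13.0 UMIs per 10000, than at P5, with 4.62 and 5.12.

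Pomc, a gene of the rule, is capped in the members, so its levels are set side by side only. It was at 3.55 UMIs per 10000 at P5 and 2.80 at P12, against 5.16 and 3.37 in the microglia of the same libraries, which should lack it and of which no such limit was asked. Against those other neurons whose Pomc was also below 10 UMIs per 10000, the members were higher, with log2 ratios of 0.97 and 0.88. With each cell thinned to 5000 UMIs, Pomc was found in 68.1% of members at P5 (62.5 to 73.3%) and 55.2% at P12 (47.5 to 62.8%), against 57.5% (52.5 to 62.5%) and 60.1% (57.8 to 62.4%) of the microglia. The members had 1 Pomc UMI in 60 of 305 cells at P5 (19.7%) and in 35 of 173 at P12 (20.2%). Every deposited cell has a Pomc UMI, so these levels are bounded from below by the selection of cells, and that UMI weighs more in the shallower microglia. The red fluorescent entry of the postnatal gene list, whose sequence is not given, had a UMI in 2 members at P5 (0.656%) and 1 at P12 (0.578%). It was as rare in the other neurons, with 23 of 3143 (0.732%) and 10 of 1138 (0.879%).

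The label of a single neuronal type was not borne out. Asb4, a subunit of ubiquitin ligases that marks arcuate neurons and the one listed marker that the rule did not use, was at 2.86 UMIs per 10000 in the members against 1.85 in the other neurons at P5, and at 4.00 against 3.34 at P12, differences of 0.63 and 0.26 on the log2 scale. Among the other neurons, those with Otp exceeded the members in Asb4, with 3.48 and 4.31. They also exceeded them in Calcr, with 2.52 and 1.83 against 0.979 and 1.11. Neurons with high Pomc reached 2.21 and 3.82 for Asb4. The markers were thus common to several arcuate groups, and the members, as shown further on, fell into sets with different transmitters and transcription factors. They are called Irs4 neurons with low Pomc here, after the rule.

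Some members carried microglial RNA. Of the members, 10 at P5 (3.28%) and 12 at P12 (6.94%) had 5 or more UMIs per 10000 on 9 microglial genes, against 26 (0.827%) and 51 (4.48%) of the other neurons. The medians were alike, with 0.441 in the members and 0.440 in the other neurons at P5 and 1.10 and 1.15 at P12. The highest members reached 171.8 and 297.3. In 15 members, 6 at P5 and 9 at P12, a non-neuronal gene list had at least as many UMIs as the neuronal genes. The lists were those of microglia, astrocytes, the oligodendrocyte lineage, vascular leptomeningeal cells and endothelial cells, not counted apart. These members entered because the rule asks for neuronal genes only. Such cells were left out of the other neurons by definition, where the highest microglial sums were 56.1 and 53.4. The shares with microglial RNA are thus set side by side only. Summed over the members, the 9 genes stood at 3.24 and 5.74 UMIs per 10000 against 0.747 and 1.51 in the other neurons.

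The question of what else set these neurons apart was put to all genes with at least 0.5 UMIs per 10000 in either set, leaving out the 14 genes of the rule and the neuronal definition. A fold of 2 in both libraries in the same direction was reached by 17 of 3476 genes, of which 9 were higher (0.259% of genes) and 8 lower (0.23%), and no gene passed in opposite directions. At P5 alone 14 of 3680 genes were higher (0.38%) and 9 lower (0.245%), and at P12 alone 58 of 4136 were higher (1.4%) and 41 lower (0.991%). The members were chosen from the same counts, so these folds describe them and are not tests. The median log2 ratio of all genes compared was -0.0070 at P5 and -0.012 at P12, so no general shift lay under these values.

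Grik1, which encodes the kainate receptor subunit GluK1, ranked below only C1qb among the higher genes by the smaller of its 2 log2 ratios. It stood at 0.760 UMIs per 10000 in the members (0.698 to 0.827) and 0.221 in the other neurons at P5, and at 0.610 (0.546 to 0.680) and 0.190 at P12. The log2 ratios were 1.79 (1.64 to 1.93) and 1.68 (1.49 to 1.88). The gene lies on chromosome 16, on the minus strand from base 87895900 to base 88290265 of GRCm38. No other group of neurons reached the members, although the Otp neurons came near at P5 with 0.616 UMIs per 10000.

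Id4, an inhibitor of DNA binding that restrains basic helix-loop-helix transcription factors, was highest in the members at P5. Its level was 2.03 UMIs per 10000 (1.93 to 2.14) against 0.458 in the other neurons, a log2 ratio of 2.15. At P12 it was 0.989 against 0.416, a log2 ratio of 1.25. The Id4 level of the members at P12 was thus below that at P5, while the other neurons hardly differed between the ages.

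The other neuronal genes past the fold were higher by smaller amounts. Luzp2, a leucine zipper protein, was at 0.938 and 0.738 UMIs per 10000 against 0.350 and 0.312 in the other neurons. Nrep, a small protein linked to neural regeneration, was at 0.938 and 0.545 against 0.461 and 0.154, so that its log2 ratio was 1.02 at P5 and 1.82 at P12. The remaining pair, Plcb4 (a phospholipase C that acts downstream of Gq-coupled receptors) and Pnoc (the precursor of nociceptin), had log2 ratios of 1.01 and 1.09 at P5 and 1.18 and 1.27 at P12. Plcb4, Pnoc and Nrep at P5 lay close to the fold limit. A narrower comparison, with only those other neurons whose Pomc was also below 10 UMIs per 10000, left Grik1 past the fold in both libraries and took Plcb4 to 0.56 and 0.43, Nrep to 0.54 and 0.83 and Pnoc to 0.82 and 0.79. In the same comparison Id4 was at 0.86 and Luzp2 at 0.97 at P12.

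C1qb, which encodes a complement component that microglia make, and Mef2c were also past the fold. The log2 ratios of C1qb were 2.18 and 1.94, from sets of which only the other neurons excluded cells with a stronger non-neuronal signature. Without the cells of 5 or more microglial UMIs per 10000, an alternative added after seeing the data, its ratios were -0.041 and 0.026. Mef2c, a transcription factor that neurons and microglia both use, had log2 ratios of 1.22 and 1.30. Its level was 0.620 and 0.749 UMIs per 10000 in the members and 7.28 and 6.44 in the microglia. With the rule applied to counts thinned to 5000 UMIs its ratio at P12 was -0.075, and against other neurons of low Pomc only its ratios were 0.57 and 0.28. Without the cells of 5 or more microglial UMIs per 10000 they were 1.11 and 1.17. How much of Mef2c in the members came with microglial RNA was not tested.

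**Figure D2:**
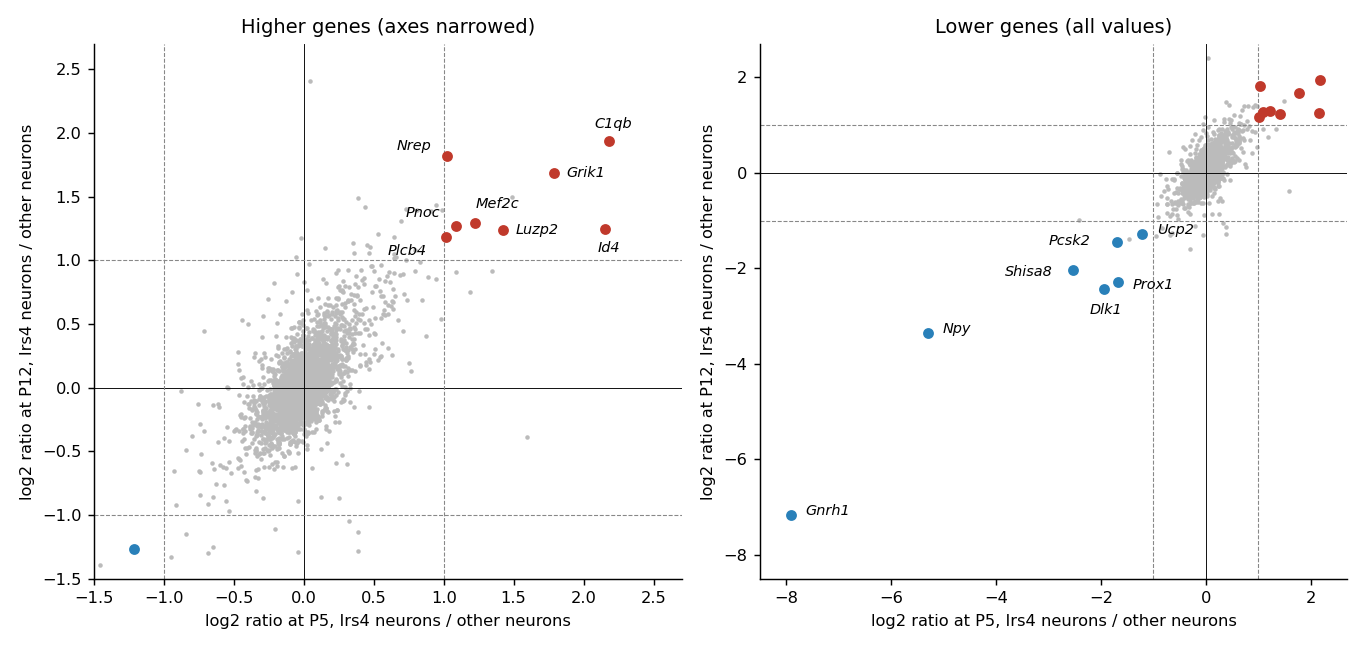
Each point is 1 of 3476 genes, with the log2 ratio of the members to the other neurons at P5 on the x axis and at P12 on the y axis, dashed lines at a fold of 2, red and blue for the genes named in the text as higher or lower in both libraries, on narrowed axes at left and over all values at right. Grik1 lies at 1.79 and 1.68 and Id4 at 2.15 and 1.25, while Gnrh1, at -7.90 and -7.16, and Npy, at -5.30 and -3.36, lie far from all other genes.

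The genes lower in the members included secreted peptides carried by other groups. Gnrh1, the precursor of gonadotropin-releasing hormone, had 2 UMIs in the members at P5 and 3 at P12. The other neurons had 4613 and 2528 UMIs, of which 99.1% and 99.5% came from 10 cells in each library. The log2 ratios of -7.90 (-10.95 to -6.05) and -7.16 (-9.44 to -5.61) thus compared the members with a handful of cells. Without the 5% of cells with the highest Scrublet doublet scores the ratio was -7.88 at P5 and -0.72 at P12, so the P12 value rested on cells of that kind. Npy, the precursor of neuropeptide Y, was at 0.0266 and 0.305 UMIs per 10000 in the members against 1.05 and 3.13 in the other neurons, and the Otp neurons, which the rule keeps out, held 30.7 and 37.5. For both peptides, the difference lay in groups that stood apart from the members.

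Dlk1, an imprinted gene for a membrane ligand of the Notch family, was at 0.767 and 0.769 UMIs per 10000 in the members against 2.94 and 4.13 in the other neurons (log2 ratios -1.94 and -2.43). Its level was 4.23 and 5.08 in the Pomc-high neurons and 5.58 and 4.61 in the Otp neurons, but 0.347 and 0.257 in the Tac2 neurons. The members were therefore between the neuron groups and not at their lower end. Prox1, a homeobox transcription factor, was also highest in the Pomc-high neurons, with 0.158 and 0.133 in the members, 0.703 and 0.791 in the Pomc-high neurons and 0.161 and 0.214 in the Tac2 neurons.

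Shisa8, which encodes an auxiliary protein of AMPA receptors, was at 0.111 and 0.214 UMIs per 10000 in the members and 0.971 and 1.19 in the Pomc-high neurons. Against other neurons of low Pomc only, its log2 ratio was -0.34 at P5 and 1.25 at P12, so its direction at P12 depended on the neurons of the comparison. Pcsk2, a prohormone convertase that cleaves the POMC precursor among others, was at 0.203 and 0.421 against 0.65 and 1.14. Ucp2, a mitochondrial carrier, was at 0.30 and 0.494 against 0.694 and 1.19, and among the neurons it was highest in the Tac2 group, with 1.57 and 2.72. Several of the lower genes thus marked the groups against which the members were set. Against the low-Pomc neurons alone, Dlk1 and Prox1 at P5 were each at -0.40 and Pcsk2 at P12 at -0.52.

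**Figure D3:**
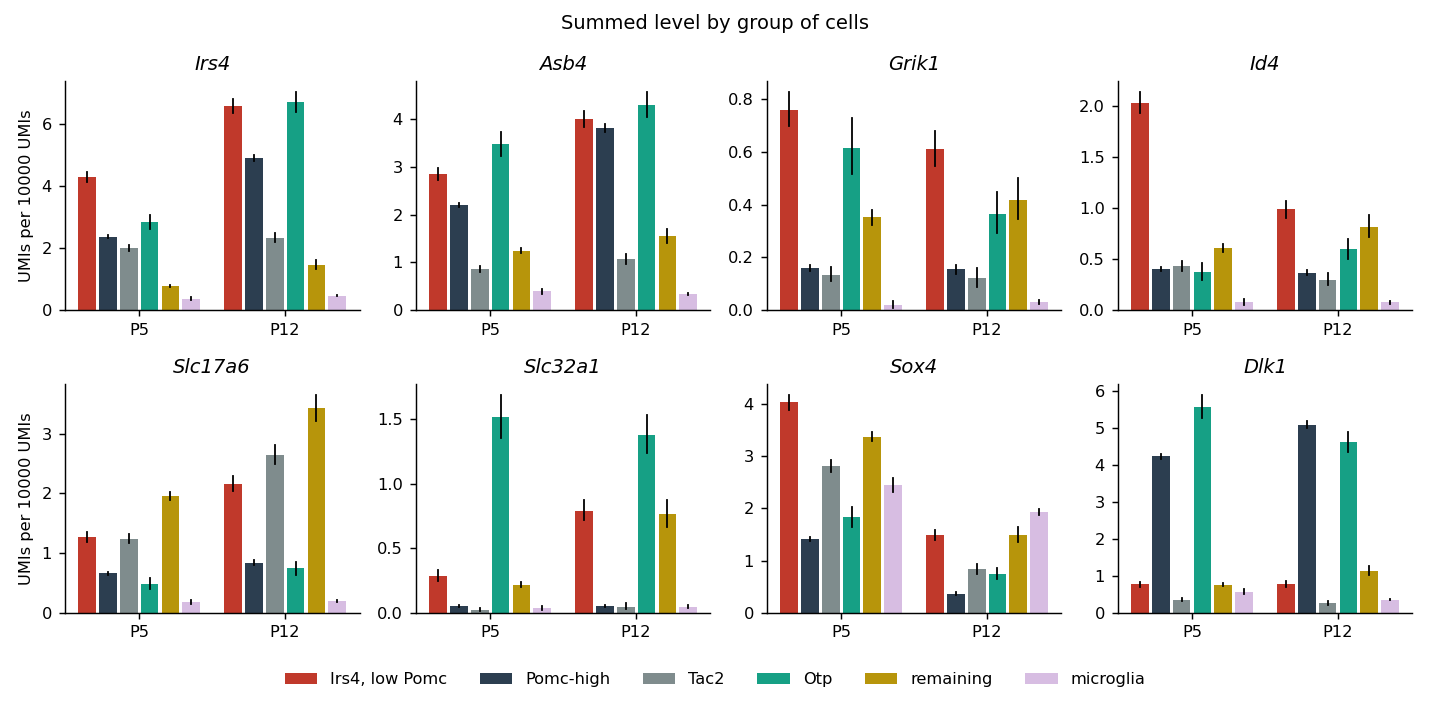
Bars give the level of 8 genes in UMIs per 10000 summed UMIs, by group of cells, at P5 and P12, with lines for exact Poisson intervals at 95%, which cover counting error only. Grik1 and Id4 are highest in the members in both libraries, whereas Asb4 and Slc32a1 are highest in the Otp neurons and Dlk1 is low in the members (0.767 and 0.769) and the Tac2 neurons.

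Most members had a glutamatergic mark and a smaller set a GABAergic one. Slc17a6, which encodes the vesicular glutamate transporter 2, had at least 1 UMI in 222 of 305 members at P5 (72.8%, 67.4 to 77.7%) and in 66.5% of 173 at P12 (58.9 to 73.5%). The shares in the other neurons were 63.1% and 70.5%, and in the microglia 12.4% and 12.9%. Slc32a1, which encodes the vesicular GABA transporter, had a UMI in 55 members at P5 (18.0%, 13.9 to 22.8%) and 62 at P12 (35.8%, 28.7 to 43.5%), against 8.81% and 12.7% of the other neurons and 1.24% and 3.25% of the microglia. With each cell thinned to 5000 UMIs, which left out 1 member in each library, Slc17a6 was found in 36.2% and 44.8% of members and Slc32a1 in 10.9% and 27.9%. The thinned shares in the other neurons were 33.2% and 38.9% for Slc17a6 and 5.30% and 6.70% for Slc32a1. At equal depth the share with Slc32a1 in the members was thus above that of the other neurons as a whole, whereas the intervals of Slc17a6 in members and other neurons overlapped at P5 (30.8 to 41.9% against 31.5 to 34.9%) and at P12 (37.2 to 52.5% against 36.0 to 41.9%).

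Few members carried both transporters. At P5, 212 members had Slc17a6 alone, 45 had Slc32a1 alone, 10 had both and 38 had neither. At P12 the numbers were 104, 51, 11 and 7. By level, Slc32a1 was at 0.287 and 0.793 UMIs per 10000 in the members, above the 0.139 and 0.217 of the other neurons (log2 ratios 1.05 and 1.87), and below the Otp neurons with 1.52 and 1.38. Against other neurons of low Pomc only, its log2 ratio at P12 was 0.32, under the fold. At P5 it did not reach the floor of 0.5 UMIs per 10000, so that it could not be among the genes past the fold in both libraries.

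Insulin and insulin-like growth factor signalling, the pathway in which IRS4 acts, gave no gene past the fold in both libraries. Of 34 genes on that list, 11 passed the floor in both libraries, and the median log2 ratio was 0.028 at P5 and -0.011 at P12, beside the medians of all genes given above. Irs2, a related docking protein, was at 0.833 and 0.571 UMIs per 10000 against 0.712 and 0.862. Igfbp5, a secreted binding protein of insulin-like growth factors, was at 1.37 against 0.671 at P12, a log2 ratio of 1.03, and at 1.05 against 1.09 at P5. Insr and Igf1r, the receptors, were below the floor in both sets. Lepr, the leptin receptor, had a UMI in 2 members at P5 and 15 at P12 (8.67%, against 9.75% of the other neurons and 0.681% of microglia), and in 0 and 1 after thinning.

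Most receptors of other hormones and transmitters could not be compared. Among 25 metabolic and steroid hormone receptors, 5 passed the floor in both libraries, and the list had medians of -0.039 and -0.027. Prlr, the prolactin receptor, had log2 ratios of -0.34 and -0.81, and Esr1, the estrogen receptor alpha, 0.40 and -0.027. Of 74 G protein-coupled receptors for peptides and transmitters, 5 passed the floor in both libraries and none the fold. The rest of these receptors were too low in at least 1 library.

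Among 76 hypothalamic transcription factors, 19 passed the floor in both libraries and Prox1 was past the fold. The factors that specify arcuate neurons were near the level of the other neurons: Isl1 at 2.33 and 1.51 UMIs per 10000 against 2.15 and 1.78 in the other neurons, Nkx2-1 at 1.48 and 1.30 against 1.65 and 1.45, and Tbx3 at 3.03 and 2.40 against 2.71 and 2.96. Prdm12, a zinc finger factor needed for Pomc expression, had a UMI in 12.5% and 11.6% of members against 39.8% and 46.8% of the other neurons and 5.97% and 2.99% of the microglia. Thinned, it was found in 3.62% and 4.07% of members and 15.9% and 18.9% of the other neurons. The other neurons included 1553 and 729 Pomc-high cells, which the Pomc limit of the rule keeps out of the members. The shares of Prdm12 are thus set side by side only. Six3, a homeobox factor of the forebrain, was lower by less than the fold, with log2 ratios of -0.54 and -0.97.

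Of the 61 ion channel genes, 22 of the 27 that passed the floor at P5 and 26 of 36 at P12 had log2 ratios above 0, as did 47.8% of all genes compared in each library. The medians were 0.13 and 0.28, and Grik1 was the one past the fold at both ages. Of the genes of immature neurons 8 of 9 and 8 of 8 were above 0, with medians of 0.25 and 0.60. Sox4, a transcription factor of newborn neurons, was at 4.03 and 1.49 UMIs per 10000 against 2.09 and 0.552, and stood at 2.45 and 1.93 in the microglia. Thy1, a surface protein of mature neurons, was also higher, with 0.744 and 2.29 against 0.376 and 0.873. In the list of mature neuron genes as a whole, 6 of 12 and 10 of 13 were above 0, with medians of -0.036 and 0.073. Of 21 imprinted genes and 11 genes of secretory granules compared in both libraries, Dlk1 and Pcsk2 respectively were past the fold, both lower, and the medians were -0.051 and -0.23 for imprinted genes and -0.091 and -0.18 for granule genes.

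Clustering of the members alone, with 6 clusters in each library, showed how mixed they were. The clusters were drawn from the same counts, so their leading genes are a description, and they stay unnamed. At another seed or resolution the P5 members gave 5 to 8 clusters (adjusted Rand index 0.596 to 0.649) and the P12 members 4 to 8 (0.674 to 1), so the clusters depend on these settings. Pairs of clusters at the 2 ages shared leading genes, and 4 pairs had 10 or more of 25 in common.

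A cluster with Slc32a1 recurred at both ages. It held 39 members at P5 and 41 at P12, led by Slc32a1, Dlx5 and Pnoc, and 14 of 25 leading genes were shared. Slc32a1 had a UMI in 38 of 39 and 41 of 41 of these cells, and Slc17a6 in 2 and 2. Pnoc was at 1.98 and 2.73 UMIs per 10000 in them, and the P12 cluster also held Sst, the precursor of somatostatin, at 3.11. These cells kept Tbx3 (3.34 and 3.30) and Nkx2-1 (1.73 and 1.67), and had little Pomc (1.29 and 1.10). Their Irs4 was below the average of the members, with 1.85 and 3.10.

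Another recurring pair carried Slc17a6 and was led by C1ql1, Ebf3 and Nr4a2. It held 21 members at P5 and 28 at P12, with 16 of 25 leading genes shared, and each of these cells had a UMI of Slc17a6. The early B-cell factor Ebf3 was at 1.51 and 2.04 UMIs per 10000. Tac1, the precursor of substance P, was at 3.37 and 8.77. The arcuate markers were nearly missing: Tbx3 was at 0.236 and 0.0647, Nkx2-1 at 0.422 and 0.0554, and Asb4 at 0.310 and 0.305. These cells met the Irs4 rule with 1.08 and 2.58 UMIs per 10000, the lowest of the clusters at each age, and they were the deepest of the P5 clusters, with a median of 40959 UMIs.

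A further pair was led by D930028M14Rik, Sncg (gamma-synuclein) and Prdm12, with 49 cells at P5 and 13 at P12 and 10 leading genes in common. Its Pomc was the highest among the clusters, with 5.31 and 6.77 UMIs per 10000. Etv1, Sox2 and Cpne4 led the largest P12 cluster (44 cells), whose Irs4 was the highest of all with 10.8. At P5 the largest cluster (117 cells) was led by Cartpt, Calb1 (calbindin) and Id4, with Id4 at 3.54 and Irs4 at 6.60, and it shared 4 leading genes with the P12 cluster of 38 cells led by Cartpt, Npy and Sox14. The P5 cluster of 36 cells led by Sox14 and Lhx5 also shared 4 with it. The last pair, 43 cells at P5 and 9 at P12, was led by microglial genes, which took 7 and 5 of the 10 leading places, and stood at 20.2 and 96.2 microglial UMIs per 10000. At P5 few of its cells carried that sum. Only 7 of the 43 had 5 or more microglial UMIs per 10000, the median was 0.486, and C1qa, its most widespread complement gene, was found in 25.6% of them. At P12 all 9 cells had 5 or more, with a median of 68.5.

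**Figure D4:**
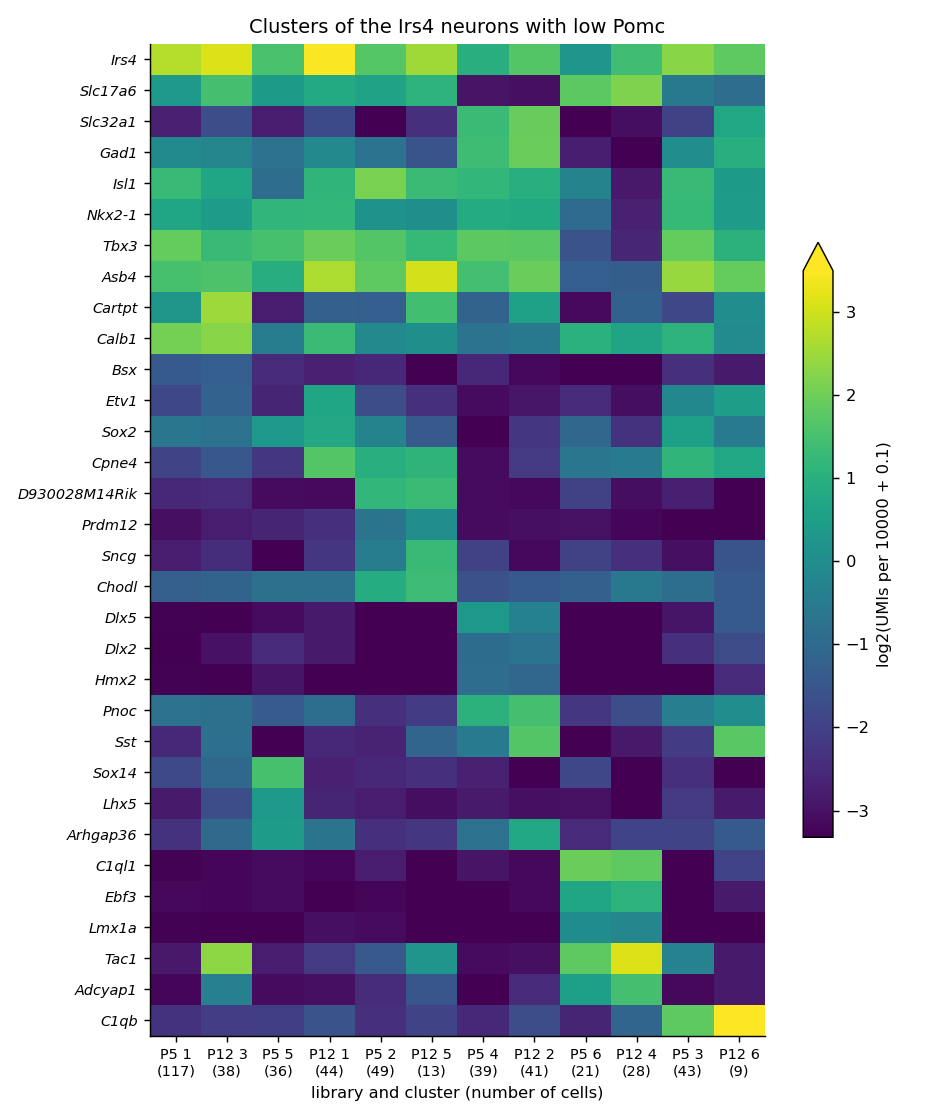
Colours give log2 of the UMIs per 10000 of each gene after adding 0.1, in the clusters of the members, with the library, cluster number and number of cells under each column and the colour scale ending at 3.5, above which values share 1 colour. Slc32a1, Dlx5 and Pnoc stand together in 2 columns (39 and 41 cells), C1ql1, Ebf3 and Lmx1a in 2 columns with little Tbx3 and Asb4 (21 and 28 cells), and C1qb in the last 2 (43 and 9 cells).

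Sets of transcription factors, chosen after the clusters were seen, were carried by a minority of members. Of Dlx1, Dlx2, Dlx5 and Dlx6, homeobox factors of GABAergic neurons, 27 members at P5 (8.85%) and 30 at P12 (17.3%) had a UMI of 2 or more, and all of them had Slc32a1. In the other neurons the shares were 2.35% and 2.55%, and 66 of 74 and 27 of 29 of these cells had Slc32a1. Of Ebf1, Ebf2, Ebf3 and Lmx1a, 18 members (5.90%) and 15 (8.67%) had 2 or more, against 5.54% and 3.60% of the other neurons, and all 18 and 15 had Slc17a6. Among the other neurons with 2 or more, 171 of 174 and 40 of 41 had Slc17a6. The link of each set with a transporter was thus not particular to the members. No cell was in both sets, among the members or among the 74 and 174 (P5) and 29 and 41 (P12) other neurons with the Dlx and the Ebf set. Counting also a set of Sox14, Lhx5 and Nhlh2 and Prdm12 alone, 176 of 305 members at P5 and 95 of 173 at P12 were in no set. Of the other neurons, 645 of 3143 and 337 of 1138 were in none, a smaller part. The counts of these sets were not thinned to equal depth. Of the members as a whole, 286 at P5 and 144 at P12 had at least 2 of Tbx3, Isl1 and Nkx2-1, but just 6 of 18 and 2 of 15 members of the Ebf set did. The other neurons showed the same pattern. At least 2 were found in 2840 of 3143 and 1008 of 1138 of them, but in 24 of 174 and 10 of 41 of those with the Ebf set. In microglia both sets were found in 0 of 402 cells at P5, and at P12 the Dlx set in 3 and the Ebf set in 11 of 1908.

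Between P5 and P12 the members were compared over 2186 genes with at least 1 UMI per 10000 in members at one age. At P12, 64 genes were higher by a fold of 2 (2.93%) and 35 lower (1.6%), while the other neurons had 42 and 46. For 11 genes (0.503%) the ratio in members and in other neurons lay apart by a fold of 2 or more. These ages are 1 library each, so age, pool and library cannot be told apart. Of 8 genes of immature neurons compared, 5 were lower by a fold of 2 at P12 in the members and 6 in the other neurons, and none was higher. Gap43, a growth cone protein, was not past the fold, with 21.6 and 18.8 UMIs per 10000 in the members. Sox11, a transcription factor of young neurons, was, with 2.51 and 0.745 UMIs per 10000 in the members and 1.52 and 0.446 in the other neurons.

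Tac1 differed most between members and other neurons over this interval. It was at 0.548 UMIs per 10000 in the members at P5 and 2.98 at P12, a log2 ratio of 2.45 (2.29 to 2.61), against 0.531 and 0.561 in the other neurons. The difference rested on few cells, since 10 members held 84.1% of the Tac1 UMIs at P5 and 80.1% at P12, and 51 and 48 members had any. With the rule applied to counts thinned to 5000 UMIs, Tac1 at P12 was lower in the members than in the other neurons, with a log2 ratio of -1.29. Cartpt, the precursor of the peptide CART, was on the other side, with 0.545 and 1.90 in the members and 0.181 and 2.48 in the other neurons. Slc32a1 in the members was at 0.287 and 0.793, beside the larger share of the cluster led by Slc32a1 at P12 (12.8% and 23.7% of members). Whether cells of these kinds became more frequent or held more RNA cannot be told apart from which cells each sort and pool delivered.

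The genes that varied most among members mixed abundant genes with genes of few cells. The genes with the greatest excess of variance over counting noise at both ages included Apoe, Tac1, C1qb, Malat1, Tmsb4x, Ndn, Meg3, Actb and Tuba1a, against a median ratio of variance to the Poisson expectation of 1.18 at P5 and 1.29 at P12 over 3313 genes. Apoe and C1qb were also among the leading genes of the cluster led by microglial genes at P5, and Tac1 was highest in the clusters led by C1ql1. The peptide genes were held unevenly as well: 10 members held 84.5% and 75.7% of the Sst UMIs and 43.7% and 50.8% of those of Cartpt, but 19.7% and 25.3% of those of Pnoc.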

How the data were processed

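The authors counted UMIs with Cell Ranger (2.2.0 and 3.0.0 in the submitters' processing notes, which also name Seurat 3.0 and the build mm10), filtered the cells, retained those in which Pomc was detected, and deposited raw counts per gene and cell. Here counts were summed over cells with Python 3.11.15, numpy 2.4.6 and scipy 1.17.1, as UMIs per 10000. Intervals are exact (Poisson, Clopper-Pearson, and conditional binomial for ratios). Members were clustered by library with scanpy 1.11.5 and leidenalg 0.10.2 (1000 variable genes, 20 components, 15 neighbours, resolution 0.5). Doublets were not removed; leaving out the 5% of cells with the highest Scrublet score was an alternative. Figures were drawn with matplotlib 3.10.9. Scripts were tested on simulated data. Positions are from GENCODE M21.

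The members, the lists and the tests were chosen with earlier results of these data known. The text names the genes that select the cells and the markers, up to 15 genes each way past a fold of 2 in both libraries, members of the lists past that fold and up to 4 of the highest level, the 5 each way that differed most in their ratio of P12 to P5, and the 10 of largest overdispersion. Genes named beyond these, such as the leading genes of clusters, the sets of transcription factors and Sox4, Sox11, Gap43, Thy1, Sst, Irs2, Insr, Igf1r, Lepr, Six3, Isl1, Nkx2-1 and Prdm12, were chosen after their values were seen. Values of some genes are not reported here, although they stay in the counts over all genes. The rule's limit on Tac2 was read as UMIs per 10000.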

Additional observations from a re-analysis of the deposited data

Results flagged for a closer look

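The rule, applied to the embryonic libraries, which the comparisons above do not use, also took cells there, and the counts at E15.5 and E17.5 were above the 3 cells that a count of 0 allows, although the interval at E15.5 reaches below the matching share of 0.152%. It took 21 of 1132 neurons at E17.5 (1.86%, exact binomial interval 1.15 to 2.82%) and 6 of 1970 at E15.5 (0.305%, 0.112 to 0.662%). It took 0 of 1638 at E13.5, which allows a share of up to 0.183%, and 0 of 1317 at E11.5, which allows up to 0.228% (3 counts over the number of neurons; the exact binomial upper bounds are 0.225% and 0.280%). The embryonic libraries come from version 2 reagents and were shallower at E15.5 and E17.5, with medians of 10699 and 8047 UMIs per cell, so age, reagent and depth cannot be told apart in these shares.

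The 21 cells at E17.5 held Irs4 at 3.83 UMIs per 10000 (3.07 to 4.72) and Id4, which the rule does not use, at 2.11 (1.56 to 2.80) against 0.555 in the other E17.5 neurons. Dlk1 was at 1.54 (1.07 to 2.14) against 7.36. Tbx3 was at 2.90 against 2.55, Nkx2-1 at 2.38 against 2.87 and Asb4 at 2.24 against 1.58. The 21 cells together held 1 UMI of Grik1, or 0.044 UMIs per 10000, and the other E17.5 neurons also had little, with 0.022. Slc17a6 had a UMI in 8 of the cells and Slc32a1 in 1, and Dlx5 and Ebf3 had none, which allows up to 0.162 UMIs per 10000 (exact Poisson bound). In the other E17.5 neurons Dlx5 was at 0.0899 and Ebf3 at 0.0355, below that bound, so these counts show no difference. The 6 cells at E15.5 had Irs4 at 2.19 and Id4 at 1.42 (0.756 to 2.43) against 0.529.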

How the results depend on the processing

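Of 14 alternatives, those on the Tac2 limit and on cells with microglial RNA were chosen after seeing the data. Of 558 recomputed log2 ratios of genes past the fold, 493 stayed past it. The 558 include ratios of rule genes such as Irs4, Calcr and Pomc. The rule itself shapes those ratios, so the count is not a measure of how firm the other genes are. The share of neurons was 7.54% at P5 with at least 3 Irs4 UMIs. It was 4.50% and 8.25% (P5 and P12) with at least 3 companion genes, 6.47% and 10.6% with Pomc below 5 UMIs per 10000, 3.15% and 5.83% with the rule on counts thinned to 5000 UMIs, and 7.76% at P12 with neurons taken by 3 of 6 neuronal genes only. The share with Slc17a6 was 37.4% and 48.6% under the thinned rule and 36.2% and 44.8% where only the share was thinned. The 9 higher genes became 14 with at least 3 companion genes, 31 with a floor of 0.2 UMIs per 10000 and 44 with a fold of 1.5. The 8 lower genes became 20 with that floor, 24 with that fold and 15 against other neurons of low Pomc only. Of the 9 higher genes, 7 were among the 14 and 3 among the 13 of the thinned rule. Against other neurons of low Pomc, 3 of them were among the 9 found there, and 4 of the 8 lower genes were among those 15. These 3 higher genes included Grik1 and the microglial gene C1qb, which was at 2.29 and 1.84, and none of the other higher genes named above.

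Directions turned for some genes. With neurons taken by 3 of 6 neuronal genes only, which lets microglia into the comparison, Apoe was at -1.25 and C1qb at -0.93 at P5, and C1qa at -3.33, C1qb at -3.44, C1qc at -3.30 and Mef2c at -1.11 at P12. Without cells of 5 or more microglial UMIs per 10000, Apoe was at -0.77 and C1qb at -0.041 at P5, and C1qa at -0.057 and C1qc at -0.29 at P12. Under the thinned rule at P12, Mef2c was at -0.075, Nrn1 at -0.47 and Tac1 at -1.29, and the cause was not tested. Against other neurons of low Pomc only, Pomc, then capped in both sets, was at 0.97 and 0.88. In that comparison Shisa8 was at 1.25 and Slc18a2 at 0.57 at P12. No paired analysis was possible because each age is 1 library, and for that reason no replicate could be left out.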

Other observations

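A list of genes of the early response to stimulation and of stress had median log2 ratios of opposite sign at the 2 ages. Of the 11 genes on that list, 7 passed the floor at P5, with 6 above 0 and a median log2 ratio of 0.31 against the other neurons. At P12, 6 passed, with 2 above 0 and a median of -0.73. Of all genes compared, 47.8% were above 0 in each library, and the list holds few genes. Egr1, a zinc finger factor induced by activity, was at 1.09 and 0.403 UMIs per 10000 in the members and 0.867 and 0.833 in the other neurons. Such genes also respond to the dissociation of tissue, and their part in these values was not tested.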
